A study of Mus musculus with 24 samples.

Results

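The keratins of interfollicular epidermis, the skin surface between hair follicles, were followed in RNA-Seq counts from embryonic mouse skin. They were chosen by name: the basal keratins Krt5, Krt14 and Krt15 and the suprabasal keratins Krt1, Krt10, Krt2 and Krt77. All 7 were present among the 54087 gene symbols of the table and all 7 were among the 17094 genes tested. Skin came from embryos at E18.5, shortly before birth, that were WT (Dsg1+/+), HET (Dsg1+/-) or KO (Dsg1-/-). In the mutant allele, the tandem Dsg1 genes (c, a and b), which encode the desmosomal cadherin desmoglein 1, were deleted with CRISPR/Cas9 in C57BL/6J zygotes. The line goes back to 1 founder, the deletion is present in every tissue, and both sexes were used. There were 8 libraries per genotype, and libraries with the same title number and genotype were summed to columns, which gave 5 WT, 5 HET and 5 KO columns (replicates 1 to 5, in ascending order of title number).

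Keratins form intermediate filaments only as pairs of a type I and a type II chain. Proliferating keratinocytes on the basement membrane make the type II chain K5 and the type I chain K14, with K15 as a further type I chain of basal cells. On leaving the basal layer, keratinocytes switch to the K1 and K10 pair, and the type II chains K2 and K77 belong to suprabasal cells as well, K2 mainly to the upper layers. The filaments attach through desmoplakin to desmosomes, where desmoglein 1 is a cadherin of the suprabasal layers.

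The sequences upstream of 4 of these genes are shown because the basal to suprabasal ratios below compare Krt5 and Krt14 with a suprabasal partner, and because Krt77 varied most. Each is the 250 bases before the transcription start given by RefSeq, on the gene strand, 5′ to 3′, on GRCm38.p6. In the GENCODE annotation the 5′ end of Krt14 is at chr11:100207548. The Krt14 window therefore lies inside that gene span and may not hold its promoter. Capitals mark matches to TATANA, the core pattern bound by the TATA-binding protein near many start sites, in a form settled on after these sequences had been viewed.
Krt5, chr15:101712906-101713155, minus strand: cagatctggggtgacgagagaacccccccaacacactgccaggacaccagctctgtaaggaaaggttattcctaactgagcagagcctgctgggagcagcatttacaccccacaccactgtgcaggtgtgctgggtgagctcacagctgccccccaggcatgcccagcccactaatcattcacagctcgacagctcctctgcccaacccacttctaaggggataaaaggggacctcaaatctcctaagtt
Krt14, chr11:100206031-100206280, minus strand: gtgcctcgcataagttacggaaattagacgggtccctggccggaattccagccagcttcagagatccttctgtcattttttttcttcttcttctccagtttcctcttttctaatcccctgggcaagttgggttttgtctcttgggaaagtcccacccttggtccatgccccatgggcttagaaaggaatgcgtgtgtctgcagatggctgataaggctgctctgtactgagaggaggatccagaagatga
Krt10, chr11:99389365-99389614, minus strand: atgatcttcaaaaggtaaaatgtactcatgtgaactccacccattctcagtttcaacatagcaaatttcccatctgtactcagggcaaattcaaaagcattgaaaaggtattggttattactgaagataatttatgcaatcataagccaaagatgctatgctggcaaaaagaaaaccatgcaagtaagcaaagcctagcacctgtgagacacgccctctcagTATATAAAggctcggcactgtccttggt
Krt77, chr15:101869706-101869955, minus strand: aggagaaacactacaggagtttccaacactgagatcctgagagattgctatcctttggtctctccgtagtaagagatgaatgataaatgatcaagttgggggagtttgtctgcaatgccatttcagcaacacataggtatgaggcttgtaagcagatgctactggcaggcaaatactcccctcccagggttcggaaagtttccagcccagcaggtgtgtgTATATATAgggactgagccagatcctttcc
Of the 7 genes, 5 had an upstream sequence in the RefSeq table, and Krt1 and Krt15 had none. On the gene strand, TATANA began 28 and 26 bases before the start in Krt10, 29 bases before it in Krt2, and 30 and 28 bases before it in Krt77. Krt5 and Krt14 had no match in this window. Krt5 does hold gataaa at a like distance from the start, which differs from the pattern in its first letter only. The lack of a match therefore does not show the lack of a TATA-like element. For Krt14, whose window lies inside the GENCODE gene span, neither a match nor its lack may describe the promoter. Of 32851 mouse promoters of the same length, 22.6% held the pattern on either strand. CACCC, a pattern bound by KLF factors, was found on either strand in Krt5, Krt14, Krt10 and Krt2 and in 52.0% of all promoters. The AP-1 pattern TGANTCA was found in none of the 5 sequences and in 6.75% of all promoters. All patterns were searched on both strands, and a match describes these letters only.

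The summed columns held 15.3 M to 33.7 M counts (M, mega). The deleted genes followed the labels, with summed Dsg1 levels of 723 to 933 CPM in WT, 371 to 492 in HET and 0.103 to 0.902 in KO. One title number stood apart: the libraries of number 35 (WT replicate 2) had 338 and 0.157 CPM of Y-linked genes and 0.275 and 574 CPM of Xist, so they were opposite in these markers. Samples of male and female embryos would differ in this way, so WT replicate 2 may mix different embryos. The 2 libraries were summed as the others were, and results were also computed with that number kept as 2 columns and without it. Among the summed columns, Y-linked genes had 366 CPM in WT replicate 5, 331 to 409 in HET replicates 1, 4 and 5, and 282 to 322 in KO replicates 2, 3 and 4. WT replicate 2 had 143 CPM, and all other columns had at most 0.368. By these markers sex was not balanced between WT and the other genotypes, and its part was not tested. CPM here are the counts of a gene per M counts of the column, with column totals scaled by TMM normalization, and those of the separate libraries of number 35 are per plain total. The labels do not say that title numbers are separate embryos, so that p-values measure the spread between these columns.

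The skin had the markers of epidermis and also of other tissue. The summed level of 10 epithelial genes such as Cdh1 and Epcam was 949 to 1273 CPM in WT, 896 to 1216 in HET and 1076 to 1559 in KO. The 10 dermal fibroblast genes summed to 25826 to 41108 CPM in WT, 22996 to 36399 in HET and 17021 to 33338 in KO. The 10 skeletal muscle genes summed to 13407 to 22767, 14687 to 21504 and 9949 to 19657 CPM, and the 8 erythroid genes to 1652 to 5156, 1854 to 6074 and 3107 to 9049 CPM, in the same order. The 10 hair follicle genes summed to 148 to 404, 131 to 633 and 187 to 478 CPM, the 8 endothelial genes to 388 to 489, 309 to 549 and 361 to 638 CPM, and the 6 melanocyte genes to 227 to 280, 134 to 307 and 222 to 356 CPM. In bulk skin, fewer cells of a type and less RNA per cell cannot be told apart.

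Krt1 and Krt10 held most of the counts of the 7 keratins. Together the 7 took 6.46% ± 0.69 of all counts in WT, 6.23% ± 0.71 in HET and 7.36% ± 0.87 in KO (mean ± SD, n = 5 columns here and below). Krt1 and Krt10 took 5.81% ± 0.71, 5.61% ± 0.64 and 6.73% ± 0.83. The basal keratins Krt5, Krt14 and Krt15 took 0.640% ± 0.047, 0.616% ± 0.088 and 0.619% ± 0.044. Of the counts of all 55 keratin symbols, the 7 genes held 97.4% in WT, 97.4% in HET and 97.2% in KO.

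Levels were compared between keratins per kilobase of merged exons, as CPM per kb. In WT, Krt10 was highest of 54 keratins with a length (15447 ± 1977 CPM per kb), followed by Krt1 (5595 ± 834). Krt14 (1363 ± 200) and Krt5 (1355 ± 47) came next and did not differ beyond their spread. Krt15 had 526 ± 53 CPM per kb, close to the 477 ± 66 of Krt17, a keratin of hair follicles and injured epidermis that is not among the 7. Krt77 had 31.7 ± 36.8 CPM per kb, and its spread reached the means of Krt79 and Krt78, which were just above it. Without WT replicate 4 it had 15.7 ± 9.3 CPM per kb (n = 4) and went from rank 10 to rank 17. Krt1 is understated on this scale, since its merged exons span 4415 bases and its longest coding transcript 2455. Per kb of that transcript Krt1 had 10062 ± 1501 and Krt10 15594 ± 1996 CPM per kb in WT, so the order stayed. Together the 7 held 96.5% ± 0.7 of the keratin level per kb in WT, 96.5% ± 0.7 in HET and 96.4% ± 1.0 in KO.

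**Figure D1:**
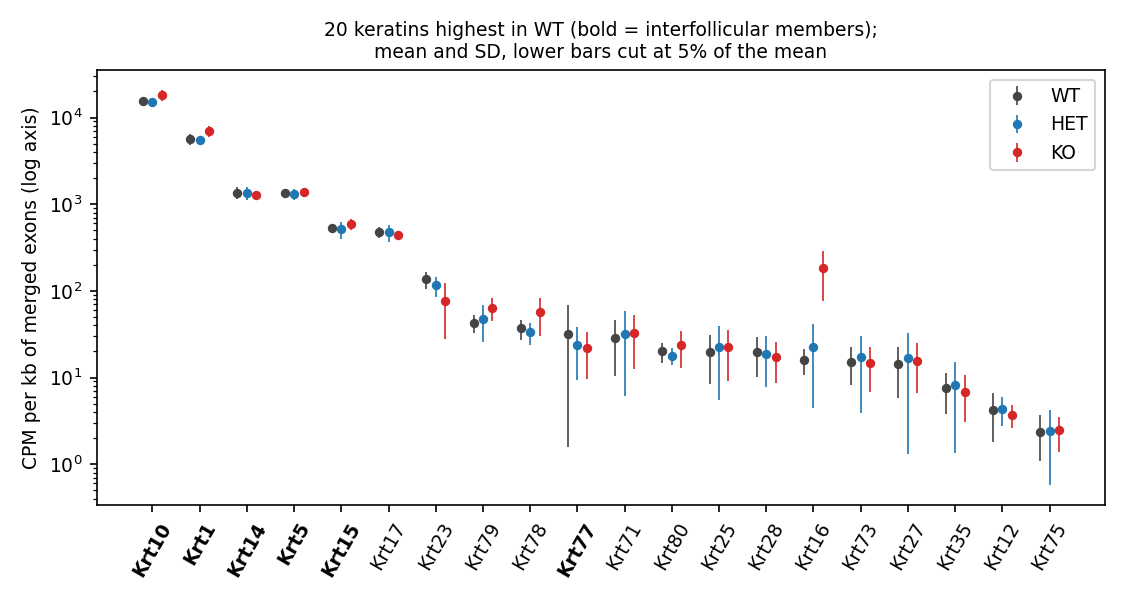
Levels of the 20 keratins that were highest in WT, as CPM per kb of merged exons on a log axis, with the mean and SD of 5 columns per genotype and the interfollicular keratins in bold. Krt10 and Krt1 lie above all others in each genotype, and Krt16 is the keratin whose KO mean stands clear of WT and HET.

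None of the basal keratins passed the test in any comparison. Krt5, the type II chain of basal cells, had 2969, 2806, 3053, 3005 and 3054 CPM in WT, 2759, 3166, 2436, 3390 and 2604 in HET, and 3309, 3333, 2998, 2903 and 2653 in KO. The WT columns lay close together, and the HET and KO columns spread on both sides of them. The log2 fold change of Krt5 in KO vs WT was 0.03 (95% interval -0.19 to 0.25, adjusted p = 0.895 in edgeR).

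Krt14, the type I partner of Krt5, had 2560, 2313, 2680, 1816 and 2607 CPM in WT, 2169, 2936, 2010, 2566 and 2023 in HET, and 2296, 2455, 2170, 2111 and 2256 in KO. WT replicate 4 was the lowest of all 15 columns and the KO columns fell within the WT range. The log2 fold change in KO vs WT was -0.09 (-0.35 to 0.18, adjusted p = 0.724). Of the 50-base stretches of the Krt14 transcript, 14.4% also occur in Krt16 or Krt17, so that reads of these genes could be split or dropped. The share was 8.52% for Krt5, with Krt6a, Krt6b and 2 gene models, 0.666% for Krt15, and 0 for the other 4 keratins.

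Krt15, a basal type I keratin also known from hair follicle stem cells, had 1082, 917, 826, 917 and 907 CPM in WT, 860, 738, 863, 1267 and 806 in HET, and 986, 1300, 965, 1050 and 917 in KO. HET replicate 4 and KO replicate 2 were the highest columns and the genotypes overlapped. Its log2 fold change in KO vs WT was 0.17 (-0.12 to 0.46, adjusted p = 0.508).

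The suprabasal pair was highest in KO without passing the test. Krt1, the type II suprabasal chain, had 20095, 22375, 24677, 29496 and 26864 CPM in WT, 22658, 27449, 20644, 25503 and 24606 in HET, and 31041, 38147, 28441, 30807 and 26059 in KO. A total of 3 KO columns lay above every WT column, and 4 above every HET column. The log2 fold change was 0.32 (0.03 to 0.61, adjusted p = 0.216) in KO vs WT and 0.35 (0.07 to 0.64, adjusted p = 0.233) in KO vs HET.

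Krt10, the type I partner of Krt1, had 27092, 30407, 33355, 38223 and 34196 CPM in WT, 29209, 36537, 27387, 31814 and 32647 in HET, and 35618, 48330, 36606, 35845 and 34543 in KO. KO replicate 2 exceeded every other column, and the other KO columns lay within the upper part of the WT range. The log2 fold change was 0.23 (-0.06 to 0.51, adjusted p = 0.352) in KO vs WT and 0.28 (-0.00 to 0.56, adjusted p = 0.318) in KO vs HET. When the summed level of the 10 epithelial genes entered the fit as a covariate, the KO vs WT change was 0.09 for Krt1 (adjusted p = 0.782) and 0.02 for Krt10 (adjusted p = 0.961). Over all alternatives the adjusted p in KO vs WT ran from 0.0292 to 0.782 for Krt1 and from 0.116 to 0.961 for Krt10. The lower end for Krt1 came from treating the 24 libraries as separate, which counts repeats of a title number as independent. The epithelial list itself had a median log2 fold change of 0.23 with 8 of 10 genes positive and 0 called. In edgeR, 5 of its 10 genes had an unadjusted p under 0.05 in KO vs WT, against 19.3% of all genes. The part of epithelial content in the keratin changes was not tested.

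Krt2, a type II keratin of the upper spinous and granular layers, was barely detected. Columns held 9 to 57 counts, with 0.437 to 1.20 CPM in WT, 0.911 to 2.12 in HET and 0.463 to 1.17 in KO, and HET replicate 2 was the highest. The log2 fold change was -0.16 (-0.93 to 0.60, adjusted p = 0.825) in KO vs WT and -0.83 (-1.57 to -0.08, adjusted p = 0.270) in KO vs HET, and at these counts a change of the size of that of Krt1 was not detectable.

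Krt77, a suprabasal type II keratin of embryonic skin and of sweat ducts, had 29.2, 30.0, 38.4, 281 and 86.5 CPM in WT, 18.7, 62.5, 86.6, 50.3 and 132 in HET, and 44.7, 118, 76.0, 51.2 and 27.8 in KO. WT replicate 4 stood far above the others, and within each genotype the highest and lowest columns differed more than the genotype means did. The log2 fold change in KO vs WT was -0.55 (-2.05 to 0.95, adjusted p = 0.678), and without WT replicate 4 it was 0.47 (adjusted p = 0.636, range over all alternatives 0.522 to 0.942).

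**Figure D2:**
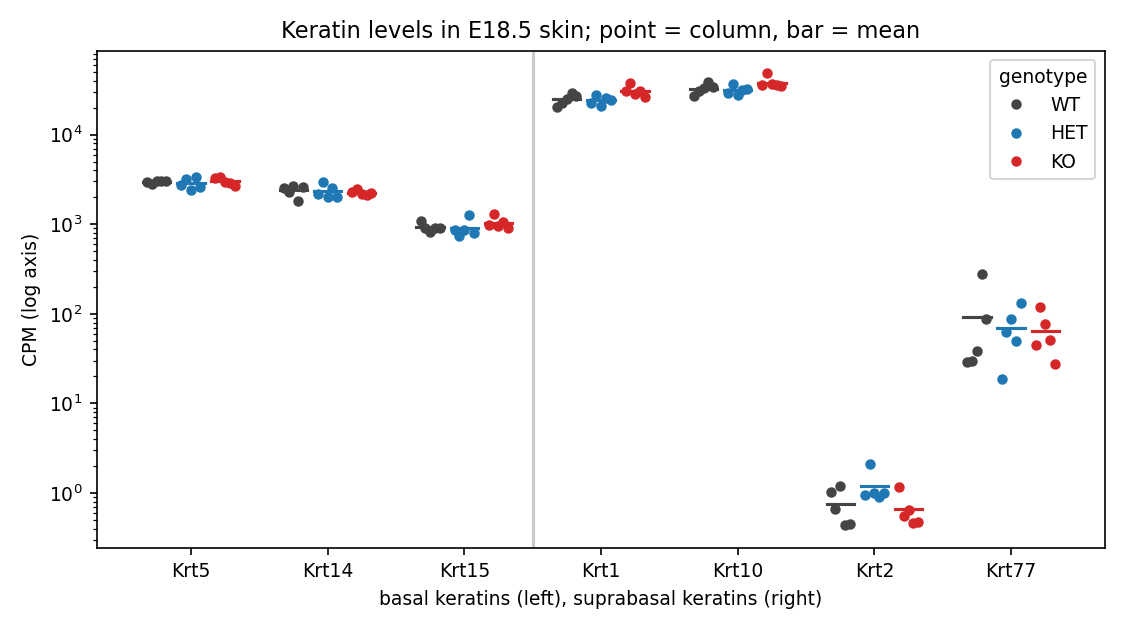
CPM of the 7 keratins on a log axis in the 5 columns of each genotype (points) with the mean (bar), basal keratins to the left and suprabasal keratins to the right of the line. The columns of Krt5, Krt14, Krt15, Krt1 and Krt10 lie close together, Krt77 runs from 18.7 to 281 CPM, and Krt2 stays between 0.437 and 2.12 CPM.

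None of the 7 keratins was called in any comparison with edgeR's quasi-likelihood test. In KO vs WT, 0 of 7 had an adjusted p of 0.1 or below, against 1.15% of all genes tested (0.322% when the log2 fold change also had to be at least 1 in size), and 1 of 7 (Krt1) had an unadjusted p under 0.05, against 19.3%. In KO vs HET, 0 of 7 were called, against 0.333% (0.181% with the fold limit), and 2 of 7 (Krt1 and Krt2) had an unadjusted p under 0.05, against 16% of genes. In HET vs WT, 0 of 7 were called, against 0% of genes with or without the fold limit, and 0 of 7 had an unadjusted p under 0.05, against 1.58%. No keratin had groups without overlap, against 3.37% of genes in KO vs WT, 0.374% in HET vs WT and 2.25% in KO vs HET. DESeq2 called 0, 0 and 1 of the 7 in KO vs WT, HET vs WT and KO vs HET, against 8.54%, 0.0177% and 4.65% of all genes it tested. Limma-voom called 0 in each, against 2.96%, 0% and 0.638%. The call by DESeq2 was Krt1 (log2 fold change 0.36, adjusted p = 0.0970, range over all alternatives 0.0112 to 0.924). The lower end of that range came from treating the 24 libraries as separate, which counts repeats of a title number as independent.

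The median log2 fold change of all 17094 genes was -0.01 in KO vs WT, 0.00 in HET vs WT and -0.00 in KO vs HET. In HET vs WT, 6 of the 7 keratins lay between -0.41 and -0.03, and Krt2 was at 0.66 (-0.08 to 1.40, adjusted p = 1.00). The intervals of Krt5, Krt14, Krt15, Krt1 and Krt10 in HET vs WT ended at -0.33 and 0.26 at the widest. Because KO vs WT and KO vs HET share the KO columns, they are not independent.

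**Figure D3:**
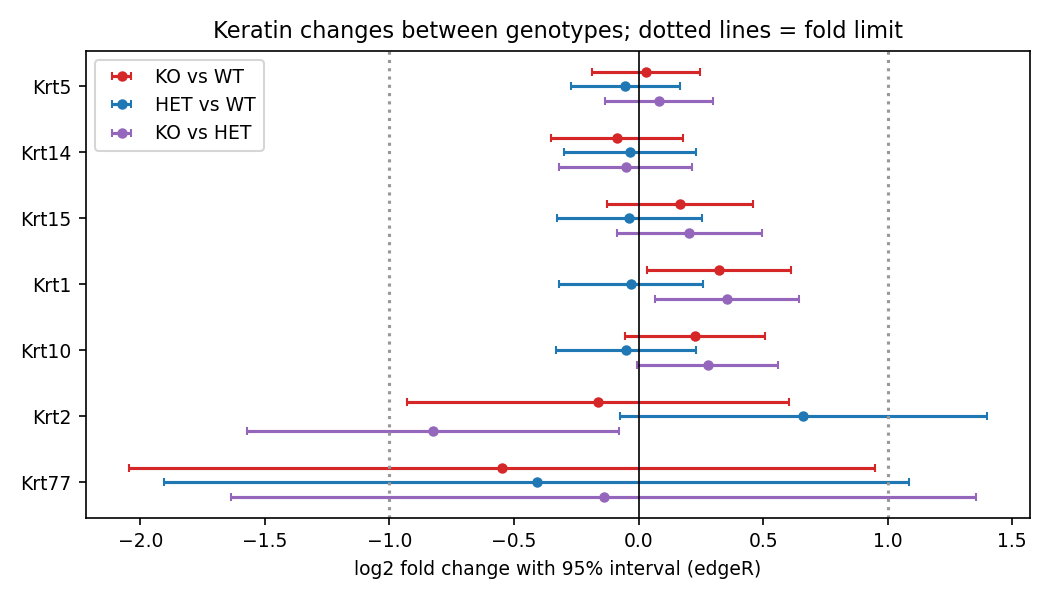
Log2 fold changes of the 7 keratins with 95% intervals from edgeR in KO vs WT, HET vs WT and KO vs HET, with dotted lines at -1 and 1. Krt5 and Krt14 lie near 0, Krt1 and Krt10 lie above 0 in both comparisons with KO, and the intervals of Krt77 span both fold limits in HET vs WT and KO vs HET.

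Basal to suprabasal ratios compare 2 genes within a column and so do not depend on library scaling. A ratio was called different at an adjusted p of 0.1 or below, by a two-sided exact permutation test adjusted over the 6 tests of both pairs. The smallest p that the 252 arrangements of 5 against 5 allow is 0.00794.

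Krt5 counts fell relative to Krt1 counts in KO. Taken singly in KO vs WT, Krt5 had a log2 fold change of 0.03 and Krt1 of 0.32, and edgeR called neither. The ratio of the type II chains, Krt5 to Krt1, was 12.2% ± 1.7 in WT, 11.9% ± 1.0 in HET and 9.91% ± 0.81 in KO. As log2 ratios, the WT columns had -2.76, -3.00, -3.01, -3.30 and -3.14, the HET columns -3.04, -3.12, -3.08, -2.91 and -3.24, and the KO columns -3.23, -3.52, -3.25, -3.41 and -3.30. WT replicate 4 lay within the KO range, and the other 4 WT columns lay above every KO column. The mean log2 difference in KO vs WT was -0.30 (exact permutation test, p = 0.0238, adjusted p = 0.0476). In KO vs HET it was -0.26 (exact permutation test, p = 0.0159, adjusted p = 0.0476), with 4 KO columns below every HET column. In HET vs WT it was -0.04 (exact permutation test, p = 0.738, adjusted p = 0.886).

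The ratio of the type I chains, Krt14 to Krt10, was 7.49% ± 1.71 in WT, 7.41% ± 0.76 in HET and 5.98% ± 0.58 in KO. The log2 ratios were -3.40, -3.72, -3.64, -4.40 and -3.71 in WT, -3.75, -3.64, -3.77, -3.63 and -4.01 in HET, and -3.96, -4.30, -4.08, -4.09 and -3.94 in KO. WT replicate 4 was the lowest of all columns, and the other WT columns lay above every KO column. The mean log2 difference was -0.31 in KO vs HET (exact permutation test, p = 0.0238, adjusted p = 0.0476). It was -0.30 in KO vs WT, which did not pass (exact permutation test, p = 0.159, adjusted p = 0.238). Without WT replicate 4 the KO vs WT difference was -0.45 (exact permutation test, adjusted p = 0.0317). Leaving out that column also raised the share of all genes called by edgeR in KO vs WT, from 1.15% to 9.74%. By the gap rule of the closing sections, WT replicate 4 was not flagged in this ratio. Over all alternatives on the log2 scale the adjusted p of the KO vs WT ratio difference ran from 0.0317 to 0.750. In HET vs WT it was 0.01 (exact permutation test, p = 0.937, adjusted p = 0.937).

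WT replicate 4 had the lowest hair follicle sum of the WT columns, 148 CPM against 223 to 404 in the other 4, with the highest fibroblast sum (41108 against 25826 to 30415 CPM) and the highest epithelial sum (1273 against 949 to 1105 CPM). The part of these in its ratios was not tested. With number 35 kept as 2 columns the KO vs WT differences were -0.31 for Krt5 to Krt1 (exact permutation test, adjusted p = 0.0476) and -0.31 for Krt14 to Krt10 (exact permutation test, adjusted p = 0.162). Without WT replicate 2 they were -0.29 (exact permutation test, adjusted p = 0.0952) and -0.28 (exact permutation test, adjusted p = 0.357).

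The libraries came in 2 title formats, called series 1 (9 libraries, 3 per genotype) and series 2 (15 libraries, 5 per genotype). In series 2 alone, the Krt5 to Krt1 difference was -0.30 in KO vs WT and -0.26 in KO vs HET, and that of Krt14 to Krt10 was -0.29 and -0.31 (exact permutation tests, adjusted p = 0.0635, 0.0476, 0.262 and 0.0635). In series 1 alone the values were -0.24, -0.25, -0.21 and -0.39, where 3 columns against 3 cannot give an exact p under 0.1.

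**Figure D4:**
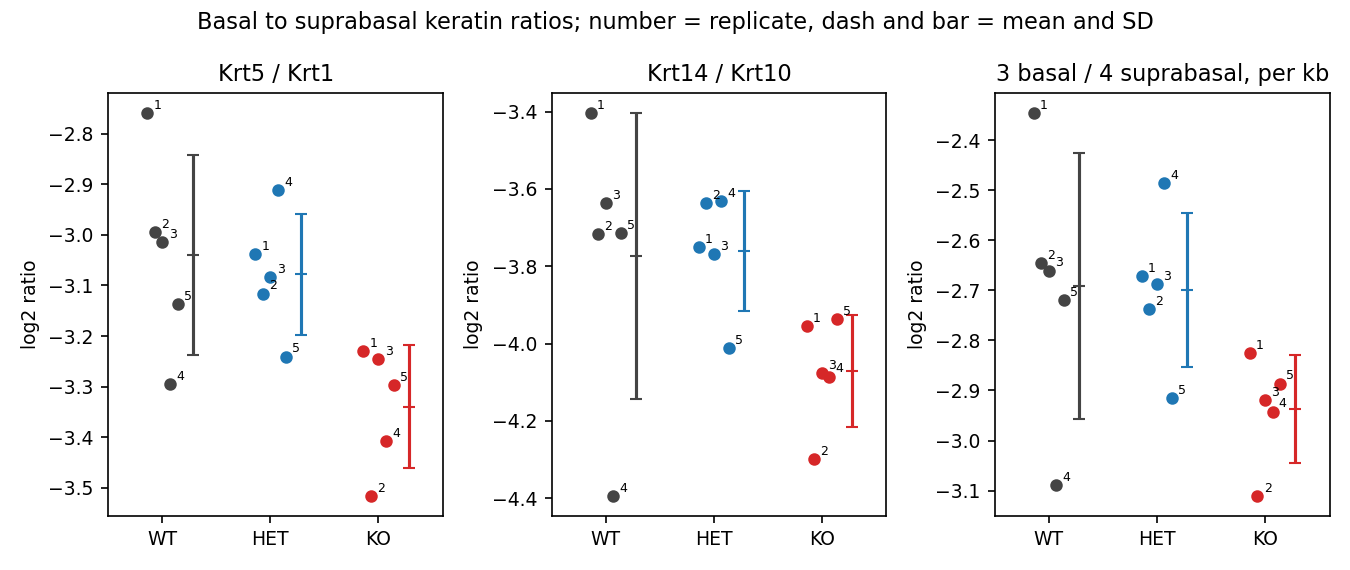
Log2 ratios per column (points, with the replicate number) and the mean and SD (dash and bar) for Krt5 to Krt1, Krt14 to Krt10, and the length-scaled sum of the 3 basal over the 4 suprabasal keratins. The KO columns sit below most WT and HET columns in each panel, and WT replicate 4 lies among or below the KO columns.

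The sum of the 3 basal over the 4 suprabasal keratins, each per kb, gives a single figure and is a description with no test. It was 15.7% ± 2.8 in WT, 15.5% ± 1.6 in HET and 13.1% ± 0.9 in KO. The mean log2 difference was -0.25 in KO vs WT, -0.01 in HET vs WT and -0.24 in KO vs HET. A single KO column lay below every WT column, and 3 lay below every HET column.

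Ratios within a layer were described in the same way. Krt1 was at 75.5% ± 2.2 of Krt10 counts in WT, 76.7% ± 2.2 in HET and 81.0% ± 5.2 in KO, where 3 columns lay above every WT column. For the basal partners, Krt5 was at 127% ± 22 of Krt14 counts in WT, 123% ± 10 in HET and 135% ± 10 in KO. Krt15 was 39.6% ± 7.5, 39.4% ± 8.9 and 46.1% ± 5.1 of Krt14. Krt77 was 0.342% ± 0.350, 0.293% ± 0.183 and 0.199% ± 0.086 of Krt1 counts, and without WT replicate 4 the WT value was 0.189% ± 0.089 (n = 4).

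The ratios were also compared between the 2 libraries of a title number; the labels do not say which steps these shared. For the 8 numbers other than 35 that have 2 libraries, these differed by at most 0.06 for Krt5 to Krt1, 0.04 for Krt14 to Krt10 and 0.04 for Krt1 to Krt10, on the log2 scale. Both basal to suprabasal ratios were lower in series 2 in 8 of 8 numbers. Number 35 had differences of -0.09, -0.09 and -0.23.

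**Figure D5:**
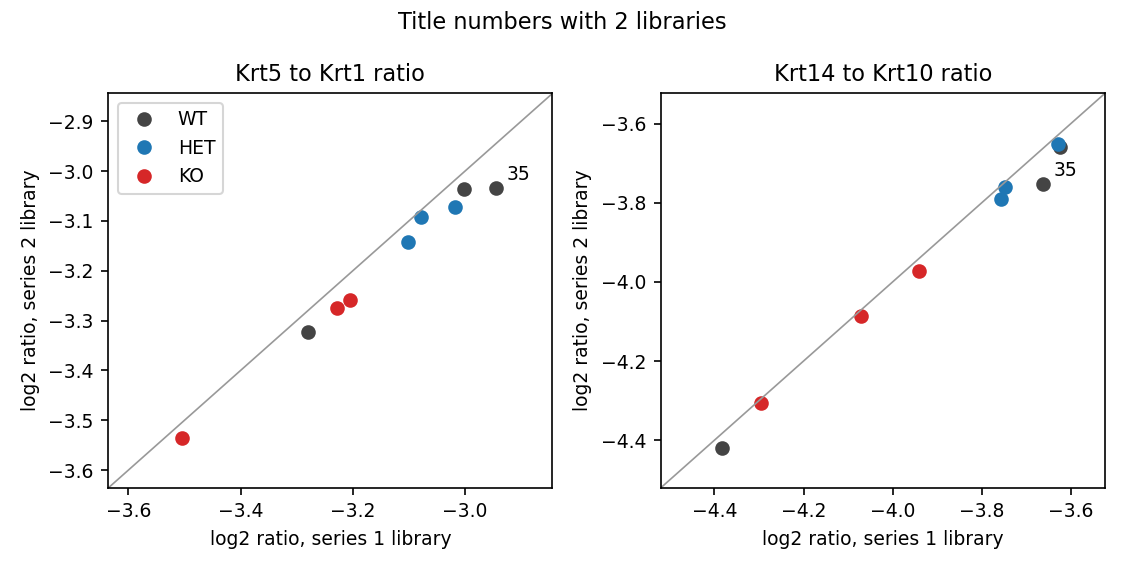
Log2 ratio in the series 2 library against that in the series 1 library for the 9 title numbers with both, for Krt5 to Krt1 and Krt14 to Krt10, with the line of equality and number 35 marked. All points lie slightly below the line, by at most 0.09.

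The other genes of epidermal layers came from lists, each described by its counts in KO vs WT beside the 1.15% of all genes called. Of 12 basal layer genes such as the integrin Itga6 (0.33, adjusted p = 0.150) and the collagen Col17a1 (0.44, adjusted p = 0.224), 0 were called, 10 were positive and the median log2 fold change was 0.17. Of 12 spinous layer genes, 1 rose, the desmosomal cadherin Dsc1 (0.64, adjusted p = 0.0915), and the median was 0.20. Of 15 granular and cornified layer genes, 1 rose, the cornified envelope precursor Ivl (0.76, adjusted p = 0.0231), and the median was 0.35. In this list Flg, the filaggrin gene, was at 0.70 (adjusted p = 0.107) and Lce1a1 at -2.26 (adjusted p = 0.122).

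A list centered on keratin anchoring was followed too, which also held Krtcap3 and Trim29. Of 12, 1 rose, the plakin Eppk1 (0.95, adjusted p = 0.0915), with 22.7 ± 2.7 CPM in WT and 44.0 ± 19 in KO. Dsp, which encodes desmoplakin, was at 0.58 (adjusted p = 0.175) and Pkp3 at 0.31 (adjusted p = 0.165), and the median of the list was 0.33. Of 15 regulators of epidermal differentiation, 1 rose, the transcription factor Grhl3 (0.76, adjusted p = 0.0184), which was also called in KO vs HET (0.63, adjusted p = 0.0733). The median of that list was 0.30 with 14 of 15 positive.

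Other keratins came from lists too, and of these only Krt16 was called in KO vs WT. Of the 4 stress keratins, 1 rose: Krt16, a type I keratin of injured or hyperproliferative epidermis, went from 24.9 ± 8.1 CPM in WT and 35.7 ± 28.8 in HET to 285 ± 166 in KO (3.52, adjusted p = 0.0333). Krt6a (3.13, adjusted p = 0.131), Krt6b (2.71, adjusted p = 0.188) and Krt17 (-0.11, adjusted p = 0.683) were not called. Of 11 tested among 12 other epidermal keratins, 0 were called, and the median was 0.62. The keratins of simple epithelia Krt18 (3.69, adjusted p = 0.147), Krt8 (2.54, adjusted p = 0.197) and Krt19 (2.98, adjusted p = 0.205) had the lowest adjusted p, and their KO means rested on KO replicate 4. Krt18 had 93.5 CPM there against 1.19 to 1.95 in the other 4 KO columns, Krt8 106 against 2.61 to 4.38, and Krt19 120 against 1.40 to 2.34. Krt78 followed at 0.62 (adjusted p = 0.233). The fibroblast list had 10 of 10 negative with a median of -0.18 and 0 called. The muscle, hair follicle, erythroid, endothelial and melanocyte lists had medians of -0.11, 0.12, 0.56, 0.06 and 0.15, each with 0 called. In HET vs WT 0 genes of any list were called.

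The genes whose levels followed 2 of the keratins most closely were listed over the 15 columns, from 8516 genes with a mean of 20 CPM or more, by Pearson's r of log2(CPM + 1). This is a description across columns that share genotype, depth and tissue makeup. For Krt14 these were Krt17 (0.89), Traf2 (0.86), Golga7b (0.81), Hras (0.80) and Exosc2 (0.79). Krt17 shares sequence with Krt14, as does Krt16, and is also a keratin of hair follicles. The part of shared sequence or of follicle content in this correlation was not tested. For Krt10 they were Slc6a8 (0.95), Desi1 (0.95), Lypd3 (0.95), Trim29 (0.95) and Gramd4 (0.94). After removal of the genotype means the values for Krt10 were 0.96, 0.93, 0.92, 0.92 and 0.91.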

How the data were processed

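RNA-Seq was performed on poly(A) RNA of flash-frozen embryonic skin with a directional kit. The authors deposited raw counts, whole numbers per mouse gene symbol for 24 libraries. The submitters' processing notes name STAR, HTSeq and the human assembly hg19, without versions; since the symbols are mouse, that build is doubtful, and annotation, strand setting and filters are not given in the sources used here. Reads shared by close copies can therefore be counted in ways not known here.

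Libraries were summed by title number and genotype to 15 columns. Counts were filtered with filterByExpr, scaled by TMM and compared by quasi-likelihood in edgeR 4.0.16 (R 4.3.3, limma 3.58.1, DESeq2 1.42.0), robust, with all genotypes in one fit and Benjamini-Hochberg adjustment over 17094 genes. Calls needed an adjusted p of 0.1 or below, with or without a log2 fold change of at least 1 in size, the limits of the study. Standard errors and intervals were derived from the F statistic. Pair ratios were tested with scipy 1.17.1. Lengths and shared 50-base stretches came from GENCODE transcripts on GRCm38. The scripts were tested on simulated data. The 7 keratins are given in full, list genes by up to 4 examples of lowest adjusted p in KO vs WT with a mean of 20 or more counts, and for Krt14 and Krt10 the 5 genes of highest correlation. The keratins and lists were chosen with earlier results of these data known. Lists overlap in Dst and Trp63. Reads carried no molecular identifiers, so counting precision excludes amplification error.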

Additional observations from a re-analysis of the deposited data

Results flagged for a closer look

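Groups of 5 columns were tested for a single column far from the rest, by its gap to the nearest column over the range of the group, against Dixon's 95% limit. Of 30 groups 5 passed, where chance gives about 1 in 20, or 1.5. KO replicate 2 was high for Krt10 (48330 CPM against 34543 to 36606 in the other 4, gap 0.850). WT replicate 4 was high for Krt77 (281 CPM against 29.2 to 86.5, gap 0.772). HET replicate 4 was high for Krt15 (1267 CPM against 738 to 863, gap 0.764). For Krt2, at under 60 counts in any column, HET replicate 2 (2.12 CPM against 0.911 to 1.00, gap 0.922) and KO replicate 1 (1.17 against 0.463 to 0.638, gap 0.752) were high.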

How the results depend on the processing

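The Krt5 to Krt1 ratio stayed lower in KO under every alternative run on the log2 scale (-0.36 to -0.23 against WT, -0.30 to -0.22 against HET). With 1 column left out, all of its calls in KO vs WT and KO vs HET remained, with adjusted p up to 0.0952. In series 1 alone, with 3 columns against 3, no ratio passed: Krt5 to Krt1 was at -0.24 in KO vs WT, 0.0096 in HET vs WT and -0.25 in KO vs HET, and Krt14 to Krt10 at -0.39 in KO vs HET. Krt14 to Krt10 in KO vs WT ran from -0.45 to -0.20 with 1 column left out and passed only without WT replicate 4; the cause was not tested. In HET vs WT, which was never called, leaving out 1 column gave -0.10 to 0.033 for Krt5 to Krt1 and -0.14 to 0.11 for Krt14 to Krt10, and the linear Krt14 to Krt10 ratio differed by -0.00081.

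Treating the 24 libraries as separate, which counts repeats of a number as independent, called 1 keratin in KO vs WT (Krt1, 0.34, adjusted p = 0.0292) and 4 in KO vs HET (Krt15, Krt1, Krt10 and Krt2), against 23.7% and 24.6% of all genes. DESeq2 called 1 in KO vs HET; the cause was not tested. For single keratins, 30 values that were not called changed sign, and no called value reversed. The total of genes called in KO vs WT was 197 by edgeR, 1451 by DESeq2 and 506 by limma-voom, and 29 to 1878 with 1 column left out (lowest without WT replicate 2, highest without KO replicate 5), so the background share is itself unsteady. In KO vs HET it was 57 by edgeR, 790 by DESeq2 and 109 by limma-voom, and 10 to 940 with 1 column left out (lowest without KO replicate 1, highest without KO replicate 5). Leaving the 7 keratins out of the scaling, scaling by the longest coding transcript and the Krt77 values without WT replicate 4 were added after seeing the data. No paired analysis was possible because the genotypes share no title number. Depth limits Krt2 (9 to 57 counts a column).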
